A study of Mus musculus with 8 samples.

Results

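The genes described here are parts of the bone morphogenetic protein (BMP) pathway: the secreted ligands Bmp4 and Bmp7, the decoy receptor Bambi, the inhibitory Smads Smad6 and Smad7, and the Id genes Id1, Id2, Id3 and Id4. They were chosen by gene symbol, and no measured value entered the rule. All 9 had a row in the total RNA table, which has 24420 rows, and 8 of them had a row in the polysomal table, which has 5804 rows; Bmp4 had a row in the total RNA table only. Mouse embryos were taken at E11.5, and the tissue is labelled brain, or neural tube in the protocol. Wild-type (WT) embryos were compared with embryos of genotype Lin28a-/-;b-/- (double knockout, dKO), in which the genes for both Lin28 RNA-binding proteins are labelled as knocked out. Total RNA and polysomal RNA, the RNA carried by several ribosomes at once, were each sequenced from 2 WT and 2 dKO replicates, giving 4 groups and 8 libraries. The labels give no strain or Cre driver, nor the animals or pools behind each replicate; the p-values below therefore cover the variation among these libraries, part of which may be technical.

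BMP ligands bind serine/threonine kinase receptors that phosphorylate Smad1, Smad5 and Smad9, and these enter the nucleus with Smad4 to switch on target genes. Id genes are classic direct targets. They encode helix-loop-helix proteins without a DNA-binding region, which pair with basic helix-loop-helix (bHLH) factors and keep neural progenitors from differentiating. Smad6, Smad7 and Bambi are themselves induced by the pathway and dampen it. In the embryonic neural tube, the roof plate and dorsal midline are known sources of BMP ligands.

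In the GENCODE M21 annotation of GRCm38, Id1 lies at chr2:152736251-152737410 on the plus strand, Id2 at chr12:25093799-25097140 on the minus strand, Id3 at chr4:136143497-136145755 on the plus strand and Id4 at chr13:48261228-48266026 on the plus strand. Bmp4 lies at chr14:46383520-46390669 and Bmp7 at chr2:172868012-172940321, both on the minus strand. Smad6 lies at chr9:63953076-64022059 on the minus strand, and Smad7 and Bambi lie on chromosome 18, at 75367529 to 75395935 and 3507923 to 3516404. Id4 overlaps the antisense gene A330033J07Rik and the long non-coding gene Gm49291, and Bmp4 overlaps Gm15217 and Gm15222 on the other strand. The libraries were strand-specific, but the strand setting of the counting is not given in the sources used here, so the counts of Id4 and Bmp4 are uncertain to that extent.

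Lin28 proteins block maturation of let-7 microRNAs, which pair through their seed with messenger RNAs. The mature let-7a sequence is shown because it is the microRNA through which Lin28 is best known to act, with the seed (bases 2 to 8) in capitals.

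let-7a: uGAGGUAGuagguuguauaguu

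Neither seed match searched, CTACCTC or TACCTCA, was found on the transcript strand in the 3′ UTR of the transcript used for any of the 9 genes, whereas 15.1% of 19442 genes with an annotated 3′ UTR held at least 1 of them. The 3′ UTRs searched ranged from 339 bases for Bmp4 to 4004 bases for Bambi.

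Promoter sequence from RefSeq (GRCm38.p6) was at hand for Id2, Id3, Id4, Bmp4 and Smad6. The GC-rich Smad1/5 motif GGCGCC, which is its own reverse complement, occurs within 250 bases before the start in 9.59% of 32851 promoters. It was found once in Id2, 231 bases before the start, and once in Id4, 148 bases before it, and was not in the windows of Id3, Bmp4 and Smad6. The stretches holding it are shown because Id2 and Id4 moved in opposite directions in polysomal RNA, with GGCGCC in capitals. The Id2 stretch, chr12:25096254-25096342 (minus strand), is intronic in the longest Id2 transcript and ends where an annotated exon begins; the Id4 stretch is chr13:48260866-48261115 (plus strand).

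Id2: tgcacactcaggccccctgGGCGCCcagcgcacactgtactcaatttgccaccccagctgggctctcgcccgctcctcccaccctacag
Id4: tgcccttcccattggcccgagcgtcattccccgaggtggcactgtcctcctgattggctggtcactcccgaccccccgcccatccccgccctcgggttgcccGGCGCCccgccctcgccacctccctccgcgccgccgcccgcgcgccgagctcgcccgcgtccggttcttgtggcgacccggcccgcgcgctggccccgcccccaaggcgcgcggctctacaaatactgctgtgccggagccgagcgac

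The short Smad motif GTCT, searched on both strands, occurs in 82.9% of promoters; there was 1 match in each of the 250-base windows of Id2, Bmp4 and Smad6, 2 in that of Id3, and none in that of Id4. The palindrome GTCTAGAC (0.167% of promoters) and the bipartite BMP response element, which contains GTCT (0.192%), were searched on both strands and found in none of the 5 windows. Both Id2 and Id4 thus share the GC-rich motif, and the matches are a description of the letters only.

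Total RNA libraries held 15060560 to 15768767 counts. The rows of the polysomal table summed to 14874143 and 15414712 in WT and to 3740980 and 5164982 in dKO; these are sums over listed genes and not sequencing depths. As a check of the labels, Lin28a had 1151 and 1091 counts in the WT total RNA libraries, against 103 and 120 in the dKO ones, and Lin28b had 2014 and 1852 against 755 and 855. Lin28b RNA thus remained in the dKO libraries; the deleted part of each gene is not given in the sources used here, and no protein was measured. In polysomal RNA Lin28a fell from 1625 and 1512 counts to 53 and 75, and Lin28b from 2409 and 2315 to 141 and 155. Replicates differed by more than sampling noise in every group, most in dKO polysomal RNA, where chi-square per degree of freedom was 24.8 against 2.88 to 3.19 in the other groups. Summed neural markers (11 genes) spanned 6516 to 6563 CPM (counts scaled to the total of the library) in WT and 6128 to 6163 in dKO total RNA. Neural markers were thus present in both genotypes, with sums that did not overlap.

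In total RNA, 8 of the 9 genes did not pass the test between dKO and WT, and Id2 alone rose. The question asked of this comparison is how transcript levels differ between genotypes. edgeR's quasi-likelihood test with Benjamini-Hochberg adjustment over 14594 genes was used, with a gene called at an adjusted p under 0.05. It called 1 of the 9 genes, or 1 higher and 0 lower, while 30.7% of all genes tested were called, 14.7% higher and 16.0% lower. The median log2 fold change of the 9 genes was -0.02, beside 0.00301 over all genes tested. In bulk tissue, fewer cells of a type and less RNA per cell cannot be told apart.

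Among the ligands, Bmp4, a dorsalising signal, had 146 and 120 counts in the WT libraries, against 129 and 94 in the dKO ones. The genotypes overlapped, at 8.62 ± 0.960 CPM (SD, n = 2) in WT and 7.13 ± 1.52 in dKO. The log2 fold change was -0.27 with a 95% interval of -0.69 to 0.14 (edgeR adjusted p = 0.35), which leaves room for a fall down to the lower bound at this depth. Bmp7, a ligand that can pair with other BMPs, had 729 and 746 counts in the WT libraries, against 806 and 747 in the dKO ones. Its genotypes also overlapped, with a log2 fold change of 0.05 and an interval of -0.12 to 0.23 (edgeR adjusted p = 0.71).

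The inhibitors of the pathway showed no called change. Bambi, a receptor-like membrane protein without a kinase domain, had 350 and 276 counts in the WT libraries, against 268 and 292 in the dKO ones, and the groups overlapped. Its log2 fold change was -0.18 (interval -0.45 to 0.09, edgeR adjusted p = 0.347). The Bambi pseudogene Bambi-ps1 has its own row, with 61 and 31 counts in the WT libraries against 45 and 34 in the dKO ones. How the authors' counting treated reads matching both copies is not given in the sources used here, so the Bambi counts are uncertain to that extent. Smad6, which mainly restrains BMP receptors, had 266 and 205 counts in the WT libraries, against 205 and 240 in the dKO ones. Smad7, which restrains both BMP and TGF-β receptors, had 488 and 484 counts in the WT libraries, against 465 and 500 in the dKO ones. In both genes the genotypes overlapped, and the intervals of the log2 fold change were -0.40 to 0.20 for Smad6 and -0.25 to 0.19 for Smad7.

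Id2 had 2680 and 2621 counts in the WT total RNA libraries, against 3250 and 3034 in the dKO ones. Both dKO libraries were above both WT libraries, at 201 ± 8.01 CPM against 172 ± 1.94 (SD, n = 2 each). The log2 fold change was 0.23 with a standard error of 0.05, or 1.17-fold (edgeR adjusted p = 1.57e-05). Id1 had 883 and 870 counts in the WT libraries, against 979 and 965 in the dKO ones. Its groups did not overlap either, but its log2 fold change of 0.13 did not pass the test (interval -0.03 to 0.29, edgeR adjusted p = 0.231). Id3 had 2841 and 2516 counts in the WT libraries, against 2828 and 2773 in the dKO ones, and Id4 had 3804 and 3587 counts in the WT libraries, against 3596 and 3795 in the dKO ones. Both overlapped between genotypes, with intervals of -0.05 to 0.14 for Id3 and -0.10 to 0.06 for Id4.

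**Figure D1:**
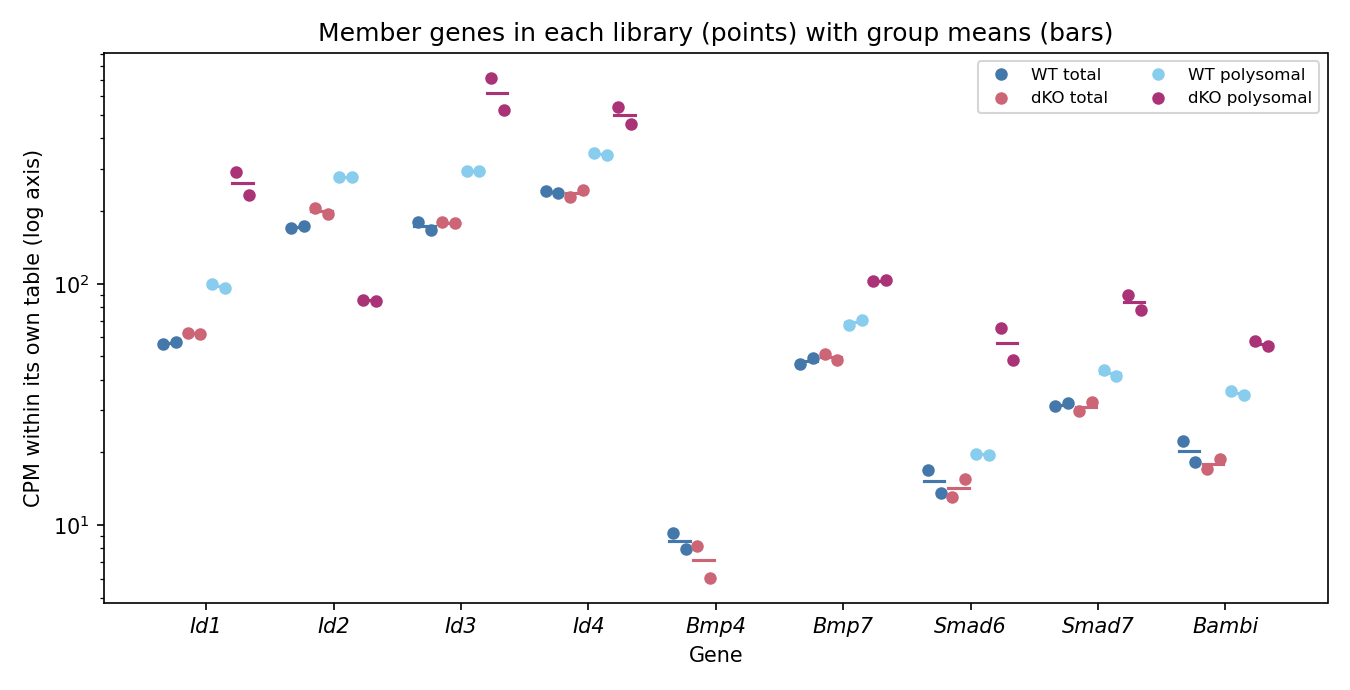
Expression of the 9 genes in each library, in CPM of its own table on a log axis; points are libraries and short lines are group means of 2 libraries. In total RNA the WT and dKO points lie close together in every gene, while the dKO polysomal points of Id2 (85.5 CPM on average) sit below the WT polysomal points (276 CPM).

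Per kilobase of the transcript used, the WT total RNA levels fell in the order Id3 (130 and 142 CPM per kb in the 2 libraries; SDs of the others over n = 2), Id2 (87.4 ± 0.985), Id4 (62.3 ± 0.905), Id1 (49.1 ± 0.811), Bmp7 (13.1 ± 0.565), Smad7 (7.38 ± 0.156), Smad6 (5.13 ± 0.804), Bmp4 (4.18 ± 0.465) and Bambi (3.60 and 4.39). Bmp4 and Bambi overlapped in this order, the lower Smad6 library (4.57) stood just above the higher Bmp4 one (4.51), and the other neighbours did not overlap. The order was the same in dKO total RNA except that Bambi (3.53) and Bmp4 (3.46) changed places within their spread. In dKO polysomal RNA the Id genes ran in another order. Per kilobase Id3 stood at 484 ± 104, Id1 at 226 ± 35.6, Id4 at 130 ± 14.8 and Id2 at 43.4 ± 0.295, so that Id2 was the lowest of the Id genes there and the second highest in WT polysomal RNA, at 140 ± 0.264.

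In polysomal RNA, Id2 was 3.23-fold lower in dKO while the other 7 listed genes, Id1, Id3, Id4, Bmp7, Smad6, Smad7 and Bambi, were higher, all relative to the rest of the listed genes. The comparison addresses how the RNA engaged by ribosomes differs between genotypes. Its frame limits it. The table lists few genes near the typical dKO to WT ratio: none of the 5441 genes averaging 100 counts or more had a log2 ratio of summed counts between -2.04 and -1.71, with 2927 below that gap and 2514 above it. edgeR called 99.7% of the 5777 genes tested, 47.2% higher and 52.5% lower, so that the count of 8 of 8 genes, 7 higher and 1 lower, says nothing particular about these genes. The p-values given for single genes in polysomal RNA carry the same limit. The median over all genes tested was -0.35 under the trimmed-mean (TMM) scaling used, -0.11 under the scaling of DESeq2 and -0.51 with column totals; the 8 genes kept their directions under each of these.

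Id2 had 4341 and 4507 counts in the WT polysomal RNA libraries, against 292 and 432 in the dKO ones. The groups were far apart, at 276 ± 0.519 CPM in WT and 85.5 ± 0.581 in dKO (SD, n = 2 each). An SD over 2 libraries can fall below the counting error, so small SDs such as these do not measure precision. The log2 fold change was -1.69 ± 0.08 (SE; edgeR adjusted p = 8.6e-05), and 5.8% of all genes tested lay lower. Without any scaling, the log2 ratio of its summed counts was -3.61, or -1.74 relative to the middle of the empty gap. The other 3 Id genes lay on the other side of that gap.

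Id1 had 1569 and 1562 counts in the WT libraries, against 991 and 1184 in the dKO ones, which against the smaller dKO sums was 97.8 ± 2.72 CPM and 262 ± 41.2. Its log2 fold change was 1.42 ± 0.12 (edgeR adjusted p = 0.000193). Id3 had 4615 and 4764 counts in the WT libraries, against 2423 and 2666 in the dKO ones, and its log2 fold change was 1.08 ± 0.14 (edgeR adjusted p = 7e-04). Id4 had 5491 and 5595 counts in the WT libraries, against 1836 and 2332 in the dKO ones, and its log2 fold change was 0.53 ± 0.09 (edgeR adjusted p = 0.00176). In these 3 genes the raw counts were lower in dKO and the CPM values higher, with no overlap between genotypes in CPM.

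Within a library the 4 Id genes can be set against each other with no scaling between libraries, but the shares are not adjusted for transcript GC content. Id2 made up 26.3% and 27.3% of the Id1 to Id4 counts in WT total RNA, 30.5% and 28.7% in dKO total RNA, and 27.1% and 27.4% in WT polysomal RNA. In dKO polysomal RNA it made up 5.27% (95% Clopper-Pearson interval 4.70% to 5.89%) and 6.53% (5.95% to 7.15%). Both dKO polysomal libraries were thus below the lowest of the other 6 by far more than the counting error, which is all these intervals cover. Id1 held 8.65% to 9.80% in the other 6 libraries and 17.9% in each dKO polysomal library. Id3 held 26.2% to 29.0% in the other 6 and 43.7% and 40.3% in dKO polysomal RNA. Id4 stayed between 33.1% and 37.4% in all 8 libraries. Id2 had 2.77 to 3.32 counts for each Id1 count in the other 6 libraries and 0.295 and 0.365 in dKO polysomal RNA. Listed genes within 1 percentage point of GC content had different median polysomal log2 fold changes for each Id gene. These were -0.71 for Id2, 0.75 for Id1, 0.79 for Id3 and -0.91 for Id4. The part of GC content in the shares was not tested.

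**Figure D2:**
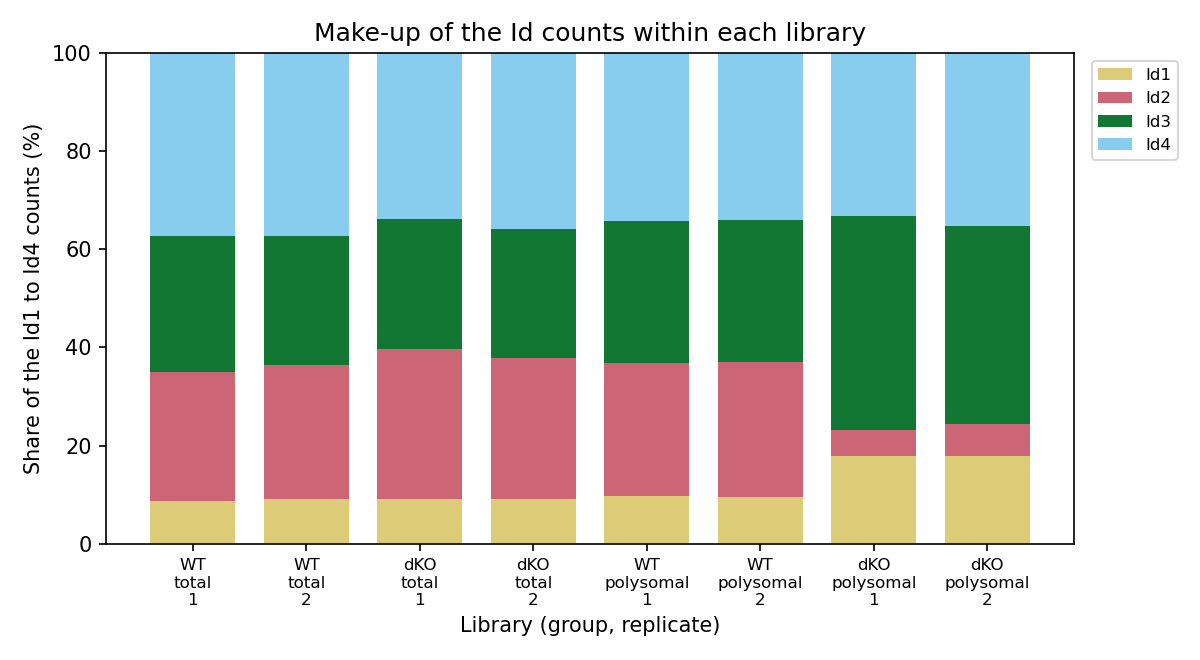
Share of Id1, Id2, Id3 and Id4 in the summed counts of these 4 genes (y axis, percent), 1 stacked bar for each of the 8 libraries. The Id2 segment is 26.3% to 30.5% in 6 libraries and 5.27% and 6.53% in the 2 dKO polysomal libraries, where the Id1 and Id3 segments are wider. The shares are not adjusted for GC content.

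The ligand Bmp7 had 1062 and 1154 counts in the WT polysomal RNA libraries, against 350 and 524 in the dKO ones, or 69.1 ± 2.36 and 103 ± 0.166 CPM. Its log2 fold change was 0.58 ± 0.10 (edgeR adjusted p = 0.00214). With an offset for transcript GC content the value was -0.11 and was not called, so the rise did not hold and no fall was shown.

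Among the inhibitors, Smad6 had 311 and 318 counts in the WT libraries, against 222 and 245 in the dKO ones, and its log2 fold change, the highest of the 8 genes, was 1.52 ± 0.19 (edgeR adjusted p = 0.000661). Smad7 had 694 and 678 counts in the WT libraries, against 305 and 394 in the dKO ones, and its log2 fold change was 0.96 ± 0.13 (edgeR adjusted p = 0.00085). The 2 inhibitory Smads moved in the same direction, and both lost the call with the GC offset, at 0.39 for Smad6 and 0.13 for Smad7. Bambi had 563 and 566 counts in the WT libraries, against 196 and 281 in the dKO ones, and its log2 fold change was 0.68 ± 0.13 (edgeR adjusted p = 0.00314). Leaving out WT polysomal replicate 2 ended the Bambi call, and its value stayed at 0.66.

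**Figure D3:**
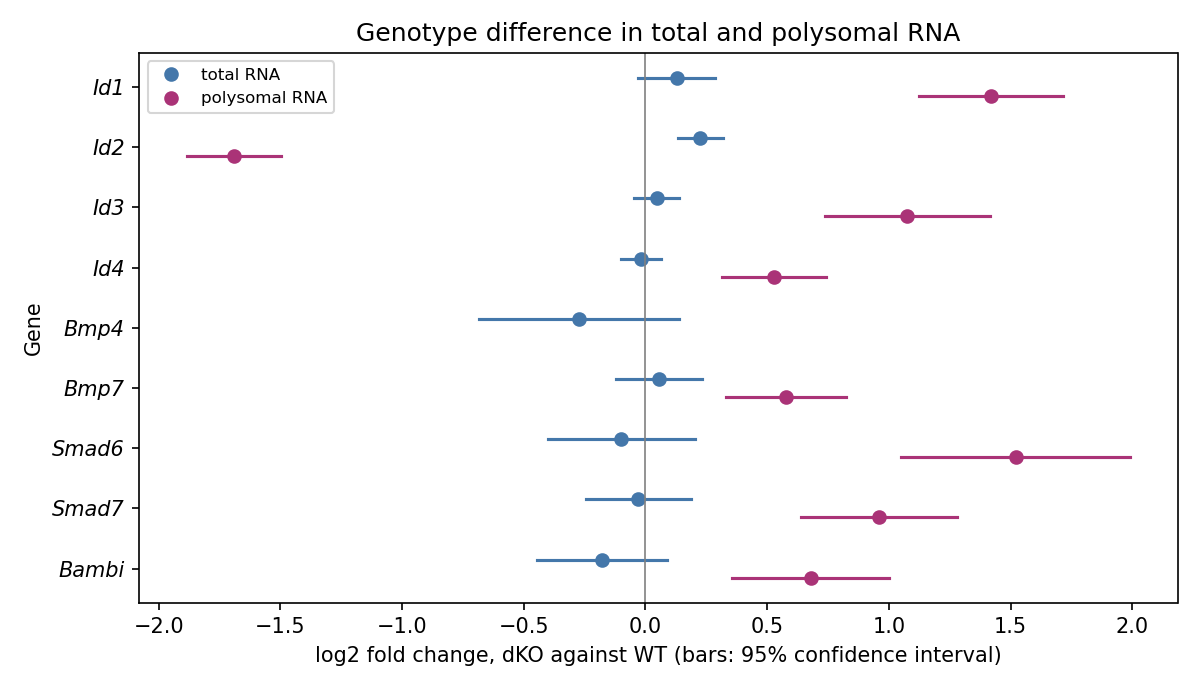
Log2 fold change of dKO against WT (x axis) for each gene in total RNA and in polysomal RNA; bars are 95% confidence intervals from the fit of 4 libraries. The total RNA values lie between -0.27 and 0.23, and the polysomal value of Id2 is -1.69 while the other 7 lie between 0.53 and 1.52. The polysomal bars span more standard errors than the total RNA bars.

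The polysomal difference moved with GC content across genes. Spearman's rho between transcript GC content and the polysomal log2 fold change was 0.774 across 5572 genes of the same 4 libraries, given as a description, since genes are not independent replicates. Smad6 (60.8% GC), Smad7 (56.9%), Id3 (55.6%), Bmp7 (55.3%) and Id1 (54.7%) are GC-rich, and each lay at a GC content where most listed genes were higher in dKO. Id2 (45.1%), Bambi (44.0%) and Id4 (42.6%) lie where most listed genes were lower. Among genes within 1 percentage point of GC, 6.16% lay below Id2, while 97.7% lay below Bambi and 97.9% below Id4. Id2 and Id4, of similar GC content, thus stood at opposite ends among genes of their own composition. For the GC-rich genes the shares lying below were 92.9% for Id1, 81.2% for Smad6, 77.8% for Id3, 62.1% for Smad7 and 26.3% for Bmp7. The share depends on the transcript chosen in some genes. Id2 transcripts range from 42.4% to 52.2% GC, and at these ends 9.42% and 3.32% of genes of like GC lay below it. For Smad7, at 56.0% and 65.8% GC, the shares were 68.0% and 13.2%, and for Smad6, at 60.8% and 67.8% GC, they were 81.4% and 57.1%; the GC-rich ends rest on 38 and 21 genes.

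With the GC offset in the polysomal fit, Id2 remained lower at -0.95 (edgeR adjusted p = 0.000393). Id4 stood at 1.54, Bambi at 1.55, Id1 at 0.78 and Id3 at 0.35, all still called. The offset leaves 5 of the 8 genes called, 4 higher and 1 lower, where it called 48.5% of all genes, 27.1% higher and 21.4% lower. The curve in that offset is fitted to the listed genes, and the part of GC content in these differences was not tested beyond it.

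**Figure D4:**
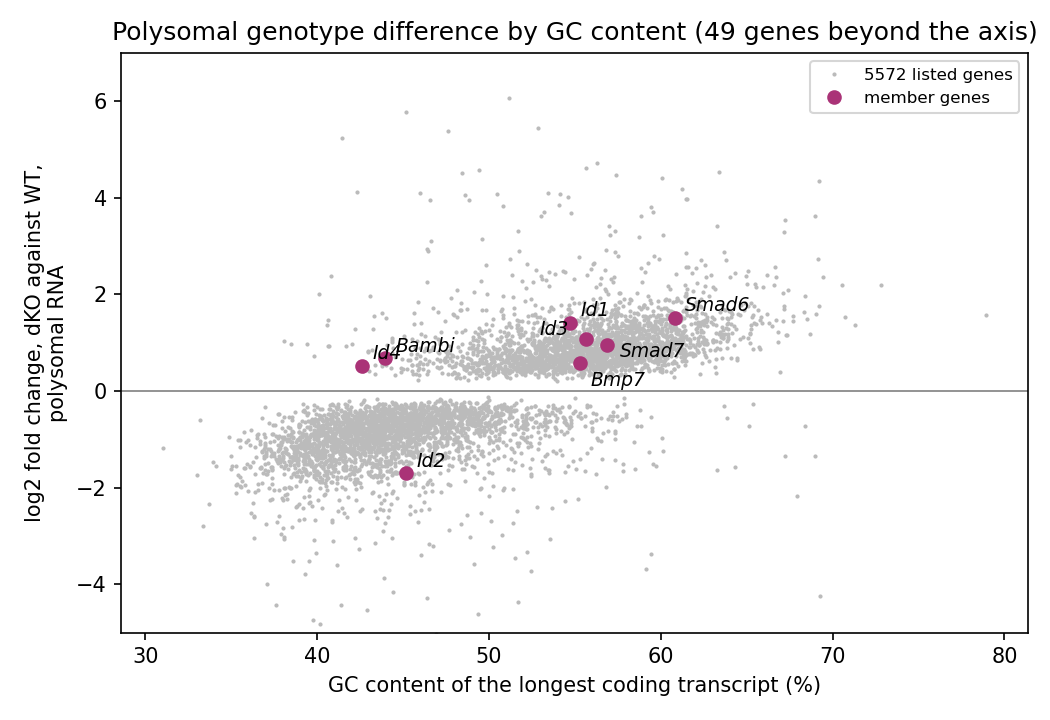
GC content of the transcript used (x axis, percent) against the polysomal log2 fold change of dKO against WT (y axis); grey points are 5572 listed genes and large points the 8 genes described here. Id2 lies at -1.69 and Id4 and Bambi at 0.53 and 0.68 over the same range of GC content, where most grey points are below 0, and the band around 0 holds almost no gene.

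In WT embryos, none of the 8 genes passed the test between polysomal and total RNA. The fit of all 8 libraries over the 5780 genes tested in both tables called 0 of the 8 genes, against 12.0% of all genes, 3.48% higher and 8.51% lower. At an unadjusted p under 0.05 edgeR also gave 0, and DESeq2 and limma-voom called 0 as well. On the CPM of shared genes, Id2 was at 277 ± 0.229 in WT polysomal and 257 ± 3.24 in WT total RNA, and the log2 fold changes of the 8 genes ran from -0.21 for Smad6 (interval -0.61 to 0.18) to 0.22 for Bambi (interval -0.07 to 0.51). The interval of Id2 was -0.02 to 0.23. With the GC offset 1 gene, Id1, was called, at 0.28.

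In dKO embryos all 8 genes were called between the fractions, 7 higher in polysomal RNA and 1 lower, where 90.0% of all genes were called, 43.1% higher and 46.9% lower. Id2 stood at 87.3 ± 0.00654 CPM in polysomal and 299 ± 12.2 in total RNA, a log2 fold change of -1.77 ± 0.07 (edgeR adjusted p = 1.56e-08). The SD of 0.00654 rests on 2 libraries and does not measure precision. The largest rises were in Id1 (1.53 ± 0.10) and Smad6 (1.44 ± 0.19), followed by Id3 (1.24), Bambi (1.11), Smad7 (0.89), Id4 (0.53) and Bmp7 (0.51). Of the 8, 5 were called with the GC offset, where 57.5% of all genes were; Smad6 (0.43) and Smad7 (0.13) lost the call, and Bmp7 turned to -0.12, which was not called. This contrast shares its dKO polysomal libraries with the polysomal genotype comparison, so the directions in one are not independent of those in the other.

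The test of the difference itself, genotype by fraction in edgeR over 8 libraries, called 8 of 8 genes, 7 higher and 1 lower, with 89.5% of all genes called, 43.7% higher and 45.8% lower. For Id2 the genotype difference was 1.88 lower on the log2 scale in polysomal than in total RNA (SE 0.09, edgeR adjusted p = 3.62e-07). The polysomal table lists few genes near the typical dKO to WT ratio, so a listed gene was likely to pass this test. The p-values of this test therefore hold only within that list. Smad6 had the highest value, 1.65 ± 0.26, and Bmp7 the lowest of the 7 positive ones, 0.56 ± 0.12. Under the GC offset 4 of the 8 genes were called, Id1, Id2, Id4 and Bambi, where 42.9% of all genes were. Id3 (0.31), Smad6 (0.51) and Smad7 (0.17) lost the call there, and Bmp7 turned to -0.15, which was not called.

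The rest of the pathway was followed through 60 further genes in 6 lists. In total RNA 54 could be tested, and 13 rose and 6 fell, which is 35.2% against 30.7% of all genes, with a median log2 fold change of 0.02. Leaving out dKO total replicate 2 brought the 19 calls to 12. Called genes were found in each of the 6 lists. The counts of single lists below stand beside 14.7% higher and 16.0% lower over all genes.

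Of the 7 other ligands tested, 1 rose and 1 fell, and both were scarce; they were chosen after their values were seen. Bmp3 had 11 and 2 counts in the WT libraries, against 26 and 16 in the dKO ones, while Gdf6 had 16 and 10 against 2 and 1. Bmp3 was called in 3 of the 13 alternatives that tested it and Gdf6 in 8 of 12. The Bmp3 call ended with DESeq2, DESeq2's scaling in edgeR, column totals, no filter on low counts, the GC offset, the replicate block and both together, and without WT replicate 2 or either dKO library. The Gdf6 call ended with DESeq2, with no filter on low counts and without either dKO library. Of 10 receptors and co-receptors, 4 rose and 1 fell. The co-receptor Rgmb rose by 0.58 ± 0.04 on the log2 scale (401 against 268 CPM), its relative Rgma by 0.36 and the type II receptor Bmpr2 by 0.30, while the activin type II receptor Acvr2b had a change of -0.34, which was not called without WT replicate 2 (-0.22); the Bmpr2 call ended in the fit of 8 libraries. Of 4 signalling Smads, Smad5 rose by 0.16 and the other 3 did not pass.

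Among 15 extracellular modulators tested, 2 rose and 2 fell. The BMP antagonist Chrdl1 had a log2 fold change of 0.57 and Twsg1, a BMP-binding protein, one of 0.29, while the antagonist Fst stood at -0.37. The Chrdl1 call ended without dKO replicate 2 (0.27) and that of Fst without dKO replicate 1 (-0.29) or WT replicate 2 (-0.29). Among 9 intracellular regulators, 4 rose and 2 fell. The Smad-binding repressor Zeb2 rose by 0.24, Tob1 by 0.33 and the phosphatase Ppm1a by 0.17, while the co-repressor Skil stood at -0.34. The Tob1 call ended without dKO replicate 1 (0.25) and the Ppm1a call without dKO replicate 2 (0.12) or in the fit of 8 libraries.

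Of 9 other BMP target genes, only Msx3, a dorsal neural tube homeobox gene, passed the test in total RNA, with 1682 and 1572 counts in the WT libraries against 2566 and 2508 in the dKO ones. Its log2 fold change was 0.62 ± 0.05 (edgeR adjusted p = 1.4e-27). Msx1, another homeobox target, had 370 and 324 counts in the WT libraries, against 274 and 328 in the dKO ones and did not pass. The median of this list was -0.19, beside 0.00301 over all genes tested.

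The bHLH factors that Id proteins can bind showed 3 rises and 3 falls among 11 tested in total RNA. Of all genes tested, 30.7% were called, 14.7% higher and 16.0% lower. The proneural gene Neurog2 rose by 0.38 ± 0.05 and the E-protein gene Tcf4 by 0.34 ± 0.04, while Neurod4 stood at -0.40 ± 0.08 and Olig2 at -0.34 ± 0.12. The list's median was 0.10. The Olig2 call ended with DESeq2 and without dKO replicate 1 (-0.27) or WT replicate 1 (-0.29).

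In polysomal RNA 25 of the 60 pathway genes could be tested and all were called, 16 higher and 9 lower, where 99.7% of all genes were. The farthest were the roof plate ligand Gdf7 (2.20 ± 0.38), Bmp2 (1.92 ± 0.37), Msx1 (1.89 ± 0.13) and the secreted modulator Vwc2 (1.72 ± 0.29). Msx1 had 495 and 612 counts in the WT libraries, against 420 and 669 in the dKO ones. With the GC offset 16 were called, 14 higher and 2 lower, where 48.5% of all genes were called, 27.1% higher and 21.4% lower; Msx1 stood at 0.95, Bmp2 at 1.58 and Vwc2 at 2.25, and Gdf7 at 0.57 was not called.

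In the genotype by fraction test 15 of the 25 genes were higher and 8 lower, where 89.5% of all genes were called, 43.7% higher and 45.8% lower. The GC offset left 10 higher and 2 lower, where 42.9% of all genes were called, 23.6% higher and 19.4% lower. Msx1 stood at 2.15 ± 0.19 (1.19 with the offset) and Acvr2b at 1.55 ± 0.14 (0.92 with the offset). The type I receptors Bmpr1a and Bmpr1b and the type II receptor Bmpr2, chosen after their values were seen, stood at -0.93, -0.96 and -1.51. With the offset these were 0.16 and 0.03, neither called, for the type I receptors and -0.38, still called, for Bmpr2. Gdf7 (1.75 ± 0.60) and Bmp2 (1.59 ± 0.49) were not called with the offset (0.13 and 1.21). The Gdf7 call also ended without dKO total replicate 1, WT polysomal replicate 2 or WT total replicate 1, and the Bmp2 call without the last of these.

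Some markers of other cell types differed between genotypes in total RNA, where 30.7% of all genes were called, 14.7% higher and 16.0% lower. Their part in the values above was not tested. Roof plate and choroid markers, the cells known to make BMP ligands, summed to 153 to 162 CPM in WT and 205 to 215 in dKO, and 3 of 11 rose: Ttr (1.79), Rspo1 (0.66) and Wnt1 (0.64). All 6 roof plate markers tested in polysomal RNA were higher, with a median of 1.77, where 99.7% of all genes were called and 47.2% were higher. With the GC offset 2 of the 6 were called, with a median of 0.54, where 48.5% of all genes were called. This list shares Msx1, Gdf7 and Lmx1a with the pathway lists. Mesenchyme markers summed to 576 to 606 CPM in WT and 508 to 516 in dKO, with 5 of 13 lower, among them Col2a1 (-0.82). Endothelial markers, cells in which Id1, Id3 and Smad6 are known to be active, summed to 229 to 230 CPM in WT and 237 to 244 in dKO, with 1 of 12 higher. Erythroid markers summed to 4413 to 4480 CPM in WT and 2695 to 2699 in dKO, with all 8 lower. Neural crest markers summed to 479 to 496 and 467 to 471 CPM, with 1 of 9 lower, and surface ectoderm markers to 7.90 to 8.60 and 7.35 to 9.99 CPM, with 0 of 4 tested called. Of the 11 neural markers, 2 were higher and 4 lower, among them Nes (-0.30), Vim (-0.25), Fabp7 (0.24) and Elavl3 (0.23). No marker of these lists was at 0 in any group.

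The genes whose centred log2 CPM over the 4 total RNA libraries lay nearest to that of Id2 were Rpl37 (Euclidean distance 0.0121), Arel1 (0.016) and Smo (0.0172), among 11534 genes. With 4 libraries this likeness is weak, since 642 genes lay within 0.1 of Id2. For Id1 the nearest were Ifnar1, Ebf3 and Pik3r3, for Id3 Zfp260, Yeats2 and Zfp811, and those for Id4 included Mcrs1 and Pip5k1a. Bmp4 had few near neighbours, 11 within 0.1, the nearest being Wdr35 (0.0248). Smad6 and Bambi, also low in counts, had few as well, 35 and 68 within 0.1.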

How the data were processed

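Per the labels' protocols, Trizol RNA went into NEBNext Ultra Directional libraries, which keep the strand. The submitters' processing notes name 3 tools (FastQC, TopHat, HTSeq) and 3 builds (mm9, mm10, GRCm38), without versions or roles. The authors deposited raw, unscaled counts, 1 table for each fraction with a row per gene symbol. How the polysomal genes were selected, and which annotation was used, is not stated in the labels.

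The counts were fitted over whole tables with edgeR 4.0.16 in R 4.3.3 (TMM, filterByExpr, quasi-likelihood F test, Benjamini-Hochberg over all genes tested, threshold 0.05). Genotype comparisons used the 4 libraries of a fraction; fraction and interaction contrasts used 8 libraries and the genes in both tables. CPM values are edgeR's, on the genes of each table. DESeq2 1.42.0, limma-voom 3.58.1, other scalings and filters, a loess GC offset (span 0.5), a replicate block and leaving out each library were alternatives; the gap scaling set the middle of the empty gap in the polysomal ratio to 0. The code was tested on simulated data. GC content and length came from the longest coding transcript in GENCODE M21 (96.5% of polysomal genes matched), and microRNA and promoter sequences from RefSeq (GRCm38.p6). Id protein sequences were not used here.

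The genes and lists were chosen with earlier results of these data known. Besides the 9 genes, up to 4 called genes of a list averaging 1 CPM or more were named, by size of change; likeness used genes averaging 5 CPM or more, and some genes these rules pick are not reported here. Confidence intervals of fold changes are 95%, from the t distribution with the fit's degrees of freedom. In total RNA these were far more than 4 libraries alone give, since the fit shares the spread among genes. The total RNA intervals therefore span fewer SEs than the polysomal ones, and they and the p-values rest on that sharing.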

Additional observations from a re-analysis of the deposited data

Results flagged for a closer look

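The genotype effect differed between polysomal and total RNA in each of the 8 genes listed in both tables, by edgeR's genotype by fraction term. On the log2 scale, polysomal minus total, the difference was -1.88 for Id2, 1.32 for Id1, 1.06 for Id3, 0.58 for Id4, 0.56 for Bmp7, 1.65 for Smad6, 1.03 for Smad7 and 0.89 for Bambi. In the same test 89.5% of all genes were called. With the GC offset Id1, Id2, Id4 and Bambi, 4 of the 8, were called, where 42.9% of all genes were; Id3 (0.31), Smad6 (0.51) and Smad7 (0.17) were not called, and Bmp7 turned to -0.15 and was not called.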

How the results depend on the processing

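Id2 kept its direction and its call under every alternative run, from 0.18 to 0.27 in total RNA, -1.85 to -0.95 in polysomal RNA and -2.06 to -1.22 in the interaction. In total RNA 1 gene, Id2, was called under every alternative, of 9 tested or of the 8 in the fit of 8 libraries, which has no Bmp4; the count over all genes was 2944 with DESeq2 and 1286 in the fit of 8 libraries, against 4485. With the GC offset, and with the GC offset and replicate block, 5 and 5 of the 8 genes were called in polysomal RNA (2803 and 2906 of all genes, against 5760), 5 and 5 between fractions in dKO (3326 and 2720, against 5202), and 4 and 5 in the interaction (2481 and 2211, against 5171). The value of Bmp7 changed sign under these 2 settings but was not called, so no fall was shown. It was -0.11 and -0.11 in polysomal RNA, -0.12 and -0.16 between fractions in dKO, and -0.15 and -0.15 in the interaction. The cause was not tested. Between fractions in WT, the GC offset called 1 of the 8 genes, Id1 at 0.28 (edgeR adjusted p = 0.0472; 0.0472 to 0.624 over the alternatives). All genes called there numbered 693 (201 higher, 492 lower), 584 with column totals (273 higher, 311 lower), 1177 with limma-voom, 858 with the GC offset (415 higher, 443 lower), 204 with the replicate block, 332 with the GC offset and replicate block, and 179 to 206 when any 1 of the 4 WT libraries was left out. The 60 other pathway genes gave 7 calls in total RNA in the fit of 8 libraries, which holds fewer genes, against 19. The labels do not say whether same-numbered samples share material. Correlations of their deviations ran from -0.0414 to 0.0615, which cannot decide it with 2 replicates in a group. The main fits treated the libraries as independent. The replicate block left 1 of 9 genes called in total RNA and 8 of 8 in polysomal RNA. Depth limits Bmp4 most, at 94 to 146 counts in a total RNA library, and then Smad6, at 205 to 266. Where a library was left out, the lone sample of its group was assumed to vary like the other groups.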

Other observations

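The TGF-β and activin branch, which shares Smad4 and Smad7 with the BMP branch, gave 1 rise and 2 falls among 11 genes tested in total RNA. That is near the share over all genes, of which 30.7% were called, 14.7% higher and 16.0% lower. The receptor gene Tgfbr1 had a log2 fold change of -0.42 ± 0.03 (SE; 705 CPM in WT and 528 in dKO), and its signal carrier Smad3 one of -0.30 ± 0.06 (118 and 96.1 CPM), while the activin subunit gene Inhbb stood at 0.62 ± 0.23 (5.13 and 7.88 CPM). All 3 passed edgeR's test. Inhbb was called in 10 of 15 alternatives, and not with DESeq2, in the fit of 8 libraries, or without dKO replicate 1, dKO replicate 2 or WT replicate 1 (0.70, 0.52 and 0.53), and the list's median was 0.06, beside 0.00301 over all genes. In polysomal RNA 4 of its 6 tested genes were called higher and 2 lower, where 99.7% of all genes were called.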
